A study of Mus musculus with 48 samples.

Results

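Transcripts of the insulin-like growth factor (IGF) family were followed in cultured mouse cells induced to become brown-like adipocytes, with and without the nucleosome-binding proteins HMGN1 and HMGN2. The 10 genes were taken by symbol from the 55450 gene rows of the count tables: 2 ligands (Igf1, Igf2), 2 receptors (Igf1r, Igf2r) and 6 binding proteins (Igfbp2 to Igfbp7). RNA was sequenced from preadipocytes of inguinal white adipose tissue (iWAT) at days 0, 3, 6 and 9 of differentiation and from mouse embryonic fibroblasts (MEFs) at days 0, 4, 8 and 12. Each day had 3 libraries of wild-type (WT) cells and 3 of double-knockout (DKO, Hmgn1-/- and Hmgn2-/-) cells on the C57BL/6 strain, 48 libraries in 16 groups. The preadipocytes came from mice 8 to 12 weeks old and the MEFs from embryos. From day 0 on, cells of both genotypes received a cocktail of the PPARγ agonist rosiglitazone at 1 μM, the thyroid hormone T3 at 1 nM and insulin at 0.5 μg/ml. It also held the phosphodiesterase inhibitor IBMX at 0.5 mM and the glucocorticoid dexamethasone at 5 μM. Per the paper's methods, the cocktail was started once preadipocytes were confluent and 2 days after confluence in MEFs. It was given for 4 days to preadipocytes and for 8 days to MEFs, and was followed by T3 and insulin alone for 4 days. The DKO cells came from mice that lack both genes throughout. The paper calls the 3 replicates of its RNA sequencing biological, but how many animals or embryos stood behind them was not given. The p-values therefore measure only the spread between libraries, which need not be that between animals or embryos.

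IGF1 and IGF2 are secreted growth factors that signal through the IGF1 receptor, a tyrosine kinase close to the insulin receptor. The IGF2 receptor, also the cation-independent mannose 6-phosphate receptor, carries IGF2 to lysosomes and does not signal through a kinase. IGF binding proteins hold the ligands outside the cell, prolong or block their action, and are cut by proteases such as PAPP-A. Insulin at the high levels of an adipogenic cocktail can also act through the IGF1 receptor, and IGF1 is known to favour the differentiation of preadipocytes. Igf2 and Igf2r are imprinted genes, with Igf2 read from the paternal and Igf2r from the maternal copy, and Igf2 is a fetal growth factor that falls in most mouse tissues after birth.

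Promoter sequences are shown for the members on which the results below turn: the fetal ligand Igf2, the binding protein that rose in preadipocytes (Igfbp3), the one with the exact letters TATAAA close to its start (Igfbp4), and Igfbp2 and Igfbp5, neighbours on chromosome 1 that lie in opposite directions. They are RefSeq sequences of build GRCm38.p6, read 5′ to 3′ on the strand of the gene, from up to 250 bases before the RefSeq start and trimmed to bases outside every GENCODE exon. All 10 members had an entry, with 14 windows in all because Igf2 had 4 starts and Igfbp2 had 2, and 2 of the 14 (that of Igf1 and 1 of Igf2) held no base outside an exon and were not searched. Capitals mark matches, on either strand, to 6 motifs. They were TATAAA, the core promoter element, then CCAAT, the box of that name, then GGGCGG, known as the GC box. The others were TGACG, the core of the cAMP response element, then TGTTCT, an arm of the glucocorticoid response element, and last AGGTCA, an arm of nuclear receptor elements. No letters were shared between these matches in the windows printed.
Igf2, minus strand, chr7:142657497-142657746, the most downstream of its 4 starts: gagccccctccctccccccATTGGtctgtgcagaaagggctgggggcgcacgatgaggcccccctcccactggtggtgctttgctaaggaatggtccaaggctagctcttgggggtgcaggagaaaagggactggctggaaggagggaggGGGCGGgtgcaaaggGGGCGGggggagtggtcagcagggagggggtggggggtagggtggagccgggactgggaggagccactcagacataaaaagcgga
Igfbp3, minus strand, chr11:7213924-7214173: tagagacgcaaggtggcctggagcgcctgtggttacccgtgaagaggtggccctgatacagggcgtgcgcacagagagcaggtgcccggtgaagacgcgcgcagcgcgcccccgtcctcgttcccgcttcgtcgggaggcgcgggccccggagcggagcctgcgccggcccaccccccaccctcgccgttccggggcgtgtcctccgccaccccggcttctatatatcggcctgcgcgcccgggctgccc
Igfbp4, plus strand, chr11:99040994-99041243: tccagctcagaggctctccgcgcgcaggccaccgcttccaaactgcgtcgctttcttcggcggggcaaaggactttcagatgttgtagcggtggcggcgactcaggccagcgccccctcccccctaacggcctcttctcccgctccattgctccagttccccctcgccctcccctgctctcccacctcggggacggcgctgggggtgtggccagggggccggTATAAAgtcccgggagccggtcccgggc
Igfbp5, minus strand, chr1:72874885-72875115: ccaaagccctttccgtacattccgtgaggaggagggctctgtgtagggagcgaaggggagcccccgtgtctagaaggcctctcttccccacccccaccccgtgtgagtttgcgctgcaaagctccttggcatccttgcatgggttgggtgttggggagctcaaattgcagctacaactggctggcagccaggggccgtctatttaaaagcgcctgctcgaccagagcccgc
Igfbp2, plus strand, chr1:72824230-72824479, the upstream of its 2 starts: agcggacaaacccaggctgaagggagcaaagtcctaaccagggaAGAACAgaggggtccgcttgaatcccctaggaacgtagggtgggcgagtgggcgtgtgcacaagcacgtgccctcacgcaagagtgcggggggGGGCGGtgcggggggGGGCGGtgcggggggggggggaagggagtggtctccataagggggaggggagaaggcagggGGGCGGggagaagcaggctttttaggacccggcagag

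The Igfbp3 and Igfbp5 windows held none of these 6 motifs. Only exact letters were searched, so variants such as the tatata near the start of Igfbp3 went unmarked. The Igfbp4 window held TATAAA beginning 28 bases before its start, a motif present in 12.4% of the 32851 windows of all genes, each of 250 bases before a start. The Igf2 window held 2 matches to GGGCGG, which stood in 32.7% of all windows, and a CCAAT box, in 33.8%. The Igfbp2 window held 3 GC boxes and 1 match to TGTTCT, which stood in 16.1% of all windows. TGACG stood in 17.8% and AGGTCA in 14% of all windows, and among the 14 member windows TGACG was found in Igf2r alone (2 matches) and AGGTCA in Igf2, Igf1r and Igf2r (1 match each). The CG dinucleotide occurred 32 times in the 250 bases of Igfbp3 and 22 times in those of Igfbp4, against 10 times in the 231 bases of Igfbp5 and 6 times in the 250 bases of the Igf2 window. These matches describe the letters of the windows and do not show that a factor binds there.

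The counts of a library summed to between 19809392 and 36006711 in preadipocytes (median 23978859) and between 18962509 and 33083208 in MEFs (median 23901663), so that even the lowest member, Igfbp2 at day 6 of DKO preadipocytes, was covered by 9 to 17 counts. Hmgn2 checked the genotypes: it had 744 to 4094 counts in WT preadipocyte libraries and at most 10 in DKO ones, and 1046 to 6069 in WT MEF libraries against at most 3 in DKO ones. Hmgn1 kept 1571 to 3160 counts in DKO preadipocytes and 1748 to 3493 in DKO MEFs, and counts per gene cannot show which of its exons they cover. Differentiation markers followed the day labels in preadipocytes, where 6 adipocyte genes (Adipoq, Fabp4, Plin1, Pparg, Cidec, Lipe) summed to 16.7 to 20.5 CPM, the counts scaled to a common library total, at day 0 and 19909 to 20317 at day 9 in WT cells. In MEFs, 5 libraries stood apart from their groups: replicate 2 of day 0 DKO, WT replicate 1 and DKO replicate 3 at day 4, and WT replicate 2 and DKO replicate 3 at day 8. Adipoq, the adipocyte hormone adiponectin, was 84.2 CPM in that day 4 WT library against 4.61 and 3.61 in its partners, and 18.6 CPM in that day 8 WT library against 237 and 232. These libraries were picked after the data were seen, with no fixed limit. Across genes, the pair of day 4 and the pair of day 8, each a WT and a DKO library, correlated with each other (r = 0.9933 and 0.9929) more than with any other library outside their own groups, and the day 0 library had the lowest mean correlation with its own group of all 48 (0.9753). Outside their own groups, WT replicates 2 and 3 of day 4 ran closest to WT replicate 2 of day 8 (0.9892 each). DKO replicates 1 and 2 of day 4 ran closest to DKO replicate 3 of day 8 (0.9920 and 0.9893). DKO replicate 2 of day 8 ran closest to DKO replicate 3 of day 4 (0.9919), and the unpicked others of day 8 to a library of day 8. Other libraries that were not picked also ran closer to another group than to their own, among them DKO replicate 1 of day 0 (0.9764 with its group and 0.9934 with WT replicate 2). Whether labels of these libraries were exchanged was not tested, so the day 4 and day 8 MEF values hold only for the labels as given. Member calls at those days are given with and without the 4 libraries, and without the day 0 library 0 members were called between genotypes at day 0, as with it. Values below are CPM scaled with TMM factors over the 48 libraries, given in replicate order, and a gene was called when its Benjamini-Hochberg adjusted p-value over all genes tested was under 0.05 and its fold change at least 1.5 in edgeR's quasi-likelihood test.

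**Figure D1:**
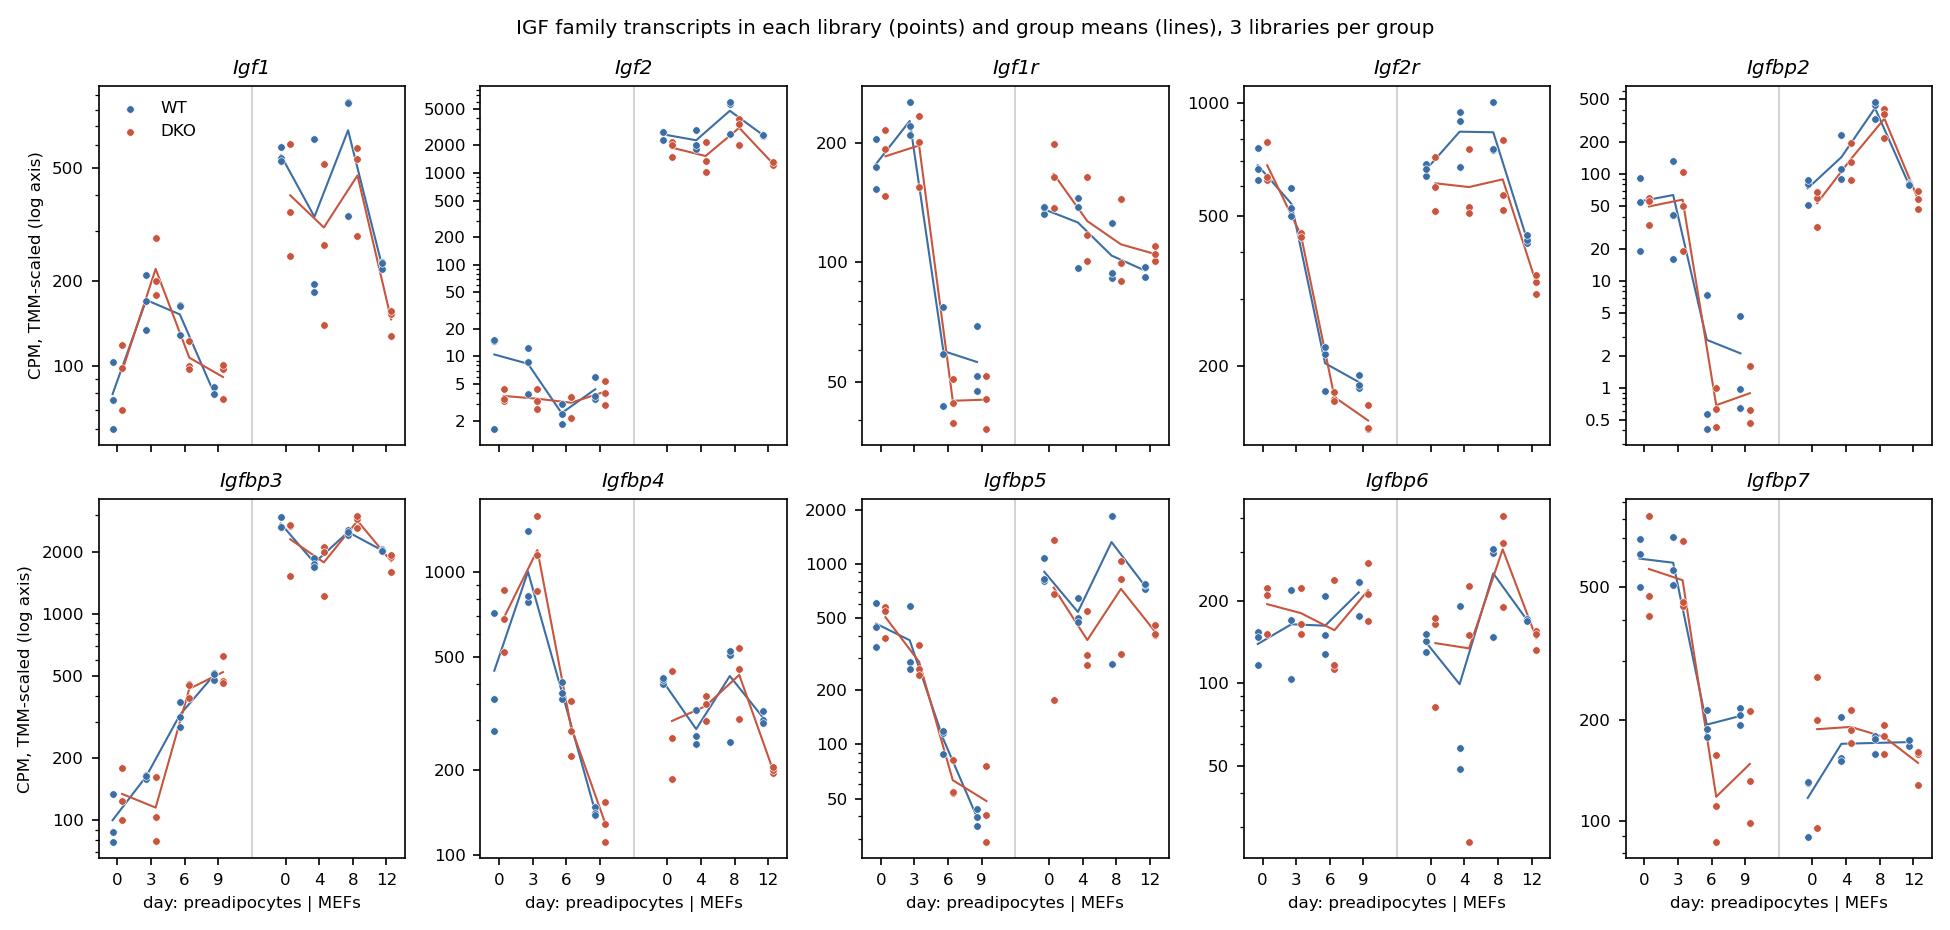
TMM-scaled CPM (log axis, a separate scale for each gene) of the 10 IGF family genes against day in preadipocytes (left of the grey line) and MEFs (right of it). Points are libraries, lines join the means of 3 libraries, and Igf2 lies between 1.63 and 15.2 CPM in preadipocytes and between 1025 and 5888 CPM in MEFs.

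Igf2 showed the widest gap of the 10 genes between the cell sources. The ligand gene (ENSMUSG00000048583.16, mm10 chr7:142650766-142666816, minus strand) stood at 1.63, 14.7 and 15.2 CPM in day 0 WT preadipocytes and at 2811, 2312 and 2801 CPM in day 0 WT MEFs. The libraries of the cell sources lay far apart, and the fitted difference was -8.07 on the log2 scale (SE 0.84, adjusted p = 0.000507 by edgeR). Igf1 (ENSMUSG00000020053.18, chr10:87858265-87937042, plus strand) stood at 60.1, 75.8 and 103 CPM in preadipocytes and at 541, 593 and 529 CPM in MEFs, a log2 difference of -2.89 (SE 0.20, adjusted p = 3.66e-05). The ligands were thus both lower in the preadipocyte libraries, and the libraries of the cell sources did not overlap. How many of all genes separate in this way was not counted, and 10310 of 15726 reached an unadjusted p under 0.05 by edgeR.

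Among the binding proteins, a different one led in each source. Igfbp3, the main carrier of IGFs in serum (ENSMUSG00000020427.11, chr11:7206086-7213923, minus strand), was 134, 78.3 and 87.1 CPM in day 0 WT preadipocytes and 2628, 2951 and 2639 CPM in MEFs, a log2 difference of -4.87 (SE 0.23, adjusted p = 4.92e-06). Igfbp7, a secreted protein with weak affinity for IGFs (ENSMUSG00000036256.13, chr5:77349240-77408041, minus strand), went the other way, with 630, 695 and 502 CPM in preadipocytes and 130, 89.7 and 131 CPM in MEFs, a log2 difference of 2.29 (SE 0.19, adjusted p = 6.62e-05). Igfbp5, a binding protein held in the matrix (ENSMUSG00000026185.8, chr1:72857932-72874884, minus strand), was lower in preadipocytes by a log2 difference of -1.04 (SE 0.22, adjusted p = 0.00583), with 609, 446 and 345 CPM against 807, 1081 and 827. The remaining binding proteins gave no call, with log2 differences of -0.50 for Igfbp2 (ENSMUSG00000039323.18, chr1:72824503-72852474, plus strand), 0.03 for Igfbp4 (ENSMUSG00000017493.12, chr11:99041244-99054392, plus strand) and -0.11 for Igfbp6, which prefers IGF2 (ENSMUSG00000023046.6, chr15:102144362-102149511, plus strand). The receptors were close between the sources. The log2 difference was -0.05 for Igf2r (ENSMUSG00000023830.14, chr17:12682406-12769664, minus strand) and 0.30 for Igf1r (ENSMUSG00000005533.10, chr7:67952827-68233668, plus strand), which passed the adjusted p (0.0385) but not 1.5-fold.

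In all, 1 of the 10 members was called higher and 4 lower in preadipocytes than in MEFs, against 18.7% of the 15726 genes tested called higher and 19.9% called lower. The member median log2 difference was -0.30 and that of all tested genes -0.02. Of the 33 other IGF pathway genes, 30 were tested, 2 were called higher in preadipocytes and 14 lower. H19, the maternally read RNA beside Igf2, was lower by a log2 difference of -8.50 (SE 0.25, adjusted p = 7.97e-07), with 10.3 to 16.9 CPM in preadipocytes and 3783 to 5049 CPM in MEFs. Adult and embryonic source, the sex of the cells and the table they came from changed together here: Xist, the RNA of the inactive X, was at most 0.496 CPM in every preadipocyte library and at least 1175 CPM in every MEF library, and Y-linked Ddx3y was 100 to 186 CPM in preadipocytes and 0 in MEFs. Markers of other cells differed too between the day 0 WT libraries. The 6 macrophage genes listed below summed to 125 to 472 CPM in preadipocytes and 5626 to 7530 in MEFs. The 4 smooth muscle genes listed there summed to 5230 to 5967 CPM and 648 to 1008. The parts of source, sex, table and cell make-up in the difference cannot be told apart.

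Per length of exon, the levels of different genes can be ranked. In day 0 WT preadipocytes Igfbp7 led with 504 ± 81.2 CPM per kb (SD, n = 3), and its libraries did not overlap those of Igfbp6 at 125 ± 17.9, whereas Igfbp6, Igfbp4, Igfbp5 and Igf2r formed a run of neighbours with overlapping libraries. In day 0 WT MEFs Igfbp3 led with 875 CPM per kb and Igf2 followed with 461, each clear of the next gene. Igf1r transcripts were the lowest of the 10 in every MEF group, between 5.68 and 9.93 CPM per kb. In preadipocytes Igf2 was lowest at days 0 and 3 in both genotypes, and Igf2 and Igfbp2 were the lowest pair at days 6 and 9.

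Over differentiation of WT preadipocytes the family was recast, mainly between days 3 and 6. Both receptors were called lower at days 6 and 9. Igf2r was 757, 623 and 665 CPM at day 0, 501, 593 and 524 at day 3, 215, 171 and 224 at day 6, and 175, 178 and 189 at day 9. Day 6 and 9 libraries lay below every day 0 library, and against day 0 the gene fell by 1.74 (SE 0.12, adjusted p = 1.01e-07) at day 6 and by 1.91 (SE 0.12, adjusted p = 5e-08) at day 9 on the log2 scale. Igf1r held 153, 174 and 205 CPM at day 0 and 220, 209 and 253 at day 3, then 77.2, 43.5 and 58.7 at day 6 and 69.2, 47.3 and 51.8 at day 9. Its log2 change against day 0 was -1.56 (SE 0.21, adjusted p = 5.36e-05) at day 6 and -1.66 (SE 0.21, adjusted p = 3.49e-05) at day 9. 

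**Figure D2:**
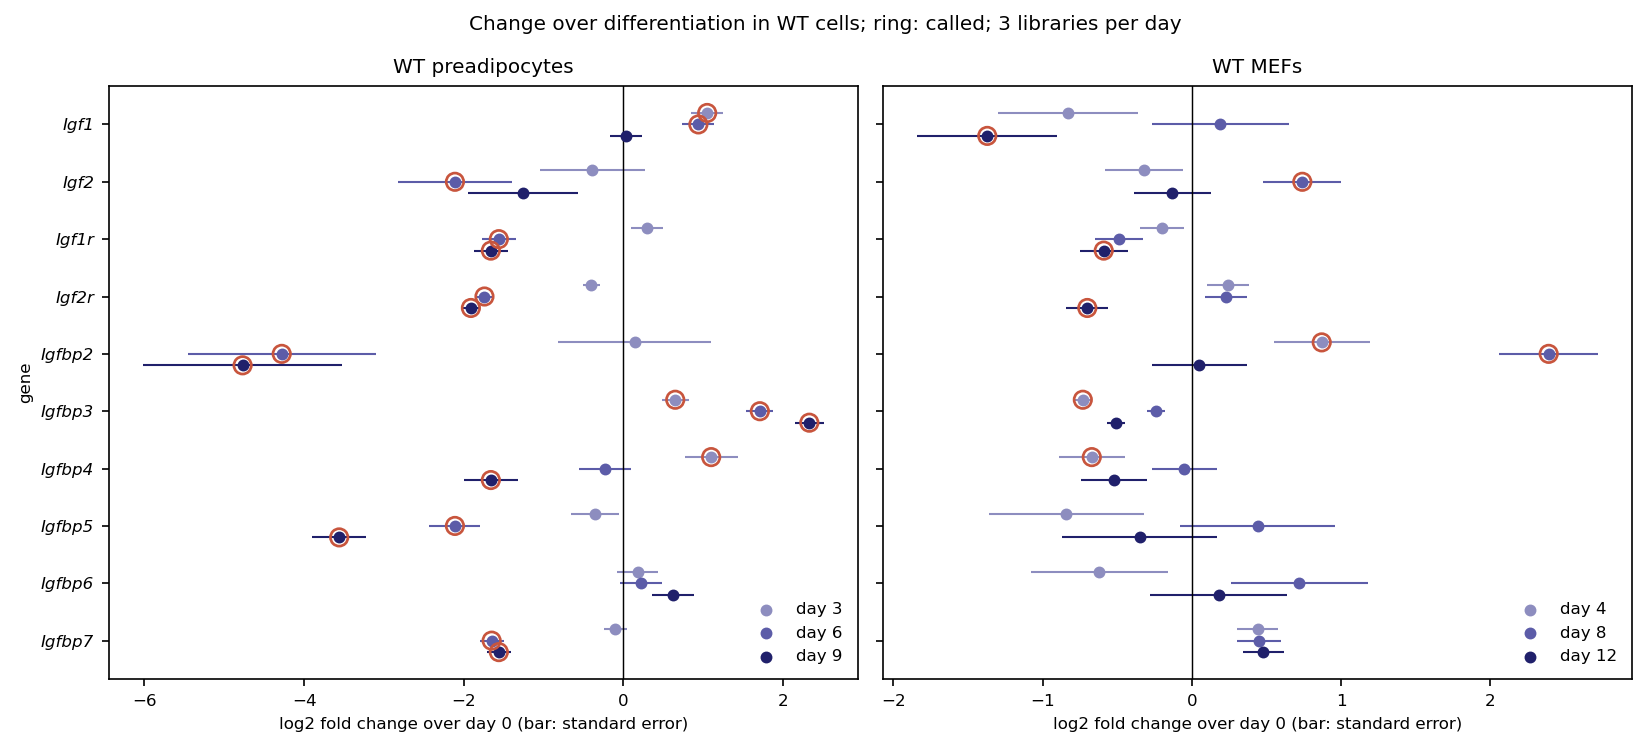
Log2 fold change over day 0 (horizontal axis, points with standard errors) of the 10 genes in WT preadipocytes (left) and WT MEFs (right), with colours for the day and rings around called genes. In preadipocytes 8 genes are ringed at day 6 and 7 at day 9, with Igfbp3 at 2.33 and Igfbp5 at -3.56 by day 9, and in MEFs 2 or 3 genes are ringed at each day.

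The ligands moved on a different course. Igf1 was raised in the middle of differentiation, with 60.1, 75.8 and 103 CPM at day 0, 170, 134 and 210 at day 3, 164, 129 and 163 at day 6 and 79.6, 84.3 and 79.5 at day 9. The log2 change was 1.05 (SE 0.20, adjusted p = 0.00181) at day 3, 0.94 (SE 0.20, adjusted p = 0.0014) at day 6 and 0.03 (adjusted p = 0.898) at day 9. All day 3 and day 6 libraries were above all day 0 libraries, and day 9 libraries lay inside the day 0 range. Igf2 fell by 2.11 on the log2 scale at day 6 (SE 0.71, adjusted p = 0.022), with 3.03, 2.36 and 1.84 CPM, a call lost without WT replicate 2 (-1.78, adjusted p = 0.0721) or 3 (-1.75, adjusted p = 0.0684) of day 0 or without WT replicate 2 (-2.11, adjusted p = 0.0592) or 3 (-1.96, adjusted p = 0.0694) of day 6, as well as with limma-voom (-1.44, adjusted p = 0.182), with no filter on low counts and from the libraries of the 2 days alone. At day 0, 1 library was already at 1.63 CPM, below the day 6 values.

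The binding proteins were split. Igfbp3 was called higher at each later day, the only binding protein so called in the edgeR test: 134, 78.3 and 87.1 CPM at day 0 became 166, 159 and 164 at day 3, 374, 316 and 282 at day 6 and 517, 478 and 512 at day 9. Its log2 change was 0.65 (SE 0.17, adjusted p = 0.00958), then 1.71 (SE 0.17, adjusted p = 3.66e-06), then 2.33 (SE 0.18, adjusted p = 3.4e-07), and its libraries at each later day were above those of day 0. The day 3 change fell below 1.5-fold without WT replicate 2 (0.51) or 3 (0.56) of day 0. Igfbp5 went the opposite way, from 609, 446 and 345 CPM at day 0 through 287, 585 and 261 at day 3 to 115, 88.3 and 119 at day 6 and 39.4, 44 and 35.3 at day 9. Its log2 change was -2.11 (SE 0.32, adjusted p = 0.000149) at day 6 and -3.56 (SE 0.34, adjusted p = 4.96e-06) at day 9.

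Igfbp2, which circulates at high levels in the fetus, fell furthest in these cells. It stood at 19, 92.9 and 54.7 CPM at day 0, at 41, 16 and 134 at day 3, at 7.46, 0.414 and 0.57 at day 6 and at 4.7, 0.648 and 0.968 at day 9. The wide spread between its libraries left large errors, with log2 changes of -4.28 (SE 1.2, adjusted p = 0.00811) and -4.77 (SE 1.25, adjusted p = 0.00616). Igfbp4, a substrate of PAPP-A, was highest at day 3 and lowest at day 9: 273, 712 and 355 CPM at day 0 became 1397, 782 and 822 at day 3, 407, 355 and 374 at day 6 and 147, 140 and 138 at day 9. It was called higher at day 3 (log2 change 1.10, SE 0.33, adjusted p = 0.0222) and lower at day 9 (-1.66, SE 0.34, adjusted p = 0.00129). The day 3 call was lost without WT replicate 1 of day 3 (0.78, adjusted p = 0.0857), without WT replicate 1 (adjusted p = 0.0571) or 3 (adjusted p = 0.0749) of day 0, with no filter on low counts (adjusted p = 0.0527) and from the libraries of the 2 days alone (adjusted p = 0.0827). Igfbp7 moved in a single step, from 630, 695 and 502 CPM at day 0 and 706, 562 and 507 at day 3 to 215, 178 and 188 at day 6 and 217, 208 and 193 at day 9, a log2 change of -1.65 (SE 0.15, adjusted p = 1.17e-06) by day 6. Igfbp6 gave no call at any day, with WT group means between 139 and 214 CPM and log2 changes of 0.18, 0.22 and 0.62 (adjusted p = 0.0563 at day 9). At day 9 it was called higher with DESeq2 (adjusted p = 0.022), with a filter of 0.5 CPM (adjusted p = 0.0476) and from the libraries of the 2 days alone (adjusted p = 0.00469), as well as in 5 of the fits that left out 1 library.

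Counted over the family, 3 of 10 members were called higher and 0 lower at day 3 (11.1% and 13.6% of 16188 tested genes), 2 higher and 6 lower at day 6 (25.6% and 27.5%), and 1 higher and 6 lower at day 9 (25.8% and 27%). The member median log2 change was 0.16 at day 3, -1.60 at day 6 and -1.61 at day 9, beside 0.01, 0.01 and -0.01 for all genes tested. The day 3 count fell to 1, Igf1, when WT replicate 3 of day 0 was left out. The 3 day comparisons share the day 0 libraries. How many of all genes had libraries of a later day clear of those of day 0 was not counted. An unadjusted p under 0.05 by edgeR was reached by 8088, 11755 and 11758 of 16188 genes at days 3, 6 and 9. Markers of other cells moved over the same days: the 6 macrophage genes (Ptprc, Adgre1, Csf1r, Cd68, Lyz2, Itgam), all above 3 counts, summed to 125 to 472 CPM at day 0, 61.2 to 230 at day 3, 5249 to 8857 at day 6 and 2668 to 5701 at day 9. Macrophages are a known source of Igf1. The 4 smooth muscle genes (Myh11, Cnn1, Acta2, Tagln) summed to 5230 to 5967 CPM at day 0 and 49.4 to 237 at day 6. Their part in these changes was not tested, and in bulk RNA fewer cells of a type and less RNA per cell cannot be told apart. The cocktail was given for 4 days, so the medium also changed between days 3 and 6. Effects of the medium and of differentiation cannot be told apart.

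**Figure D3:**
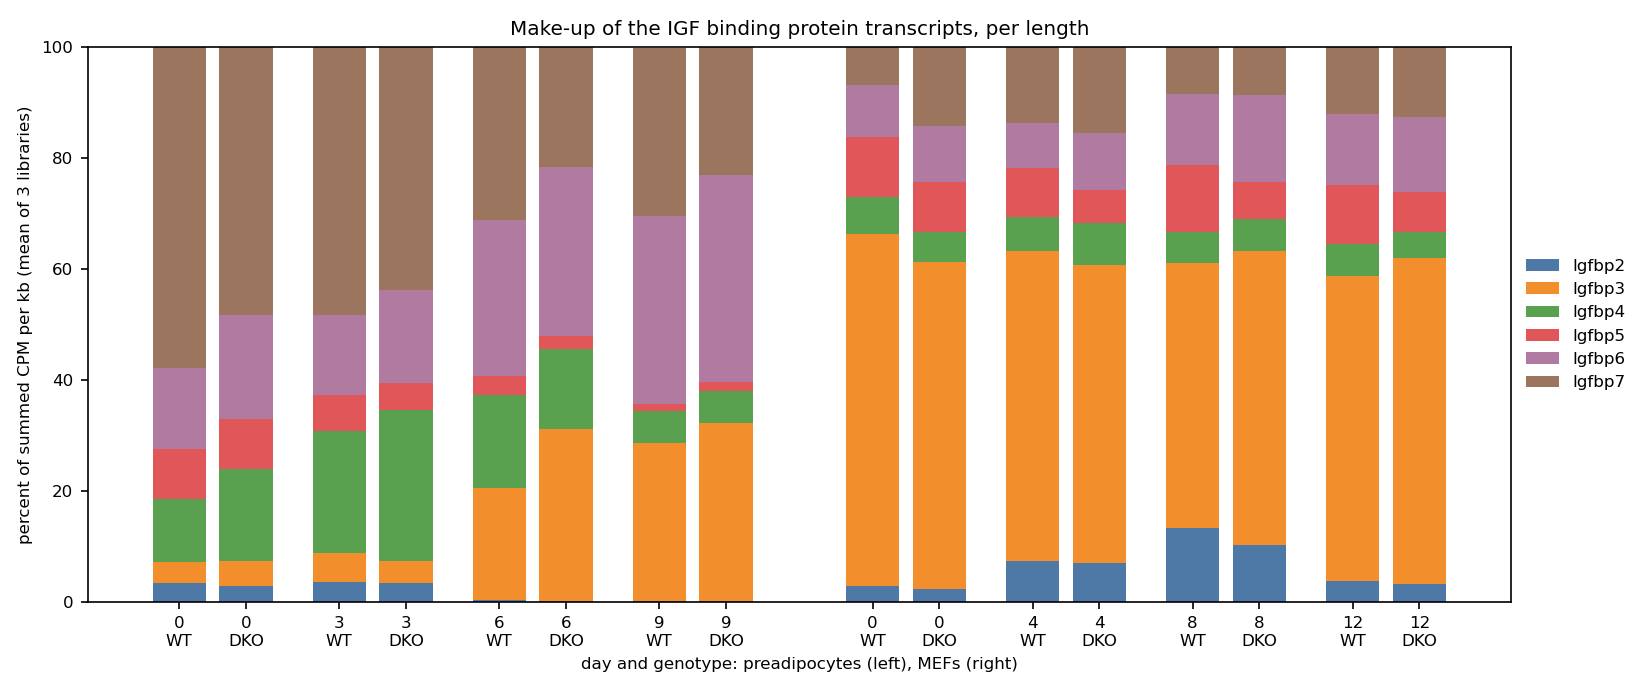
Mean share of each binding protein in the summed CPM per kb of Igfbp2 to Igfbp7 (stacked bars from 0 to 100 percent, means of 3 libraries) by day and genotype in preadipocytes (left) and MEFs (right). In WT preadipocytes the Igfbp7 share goes from 58 to 30.3 percent and the Igfbp3 share from 3.75 to 28.5 percent between days 0 and 9, while in WT MEFs Igfbp3 holds 47.9 percent or more at every day.

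The make-up of the binding protein transcripts changed with these movements. Their summed level was 870 ± 151 CPM per kb (SD, n = 3) at day 0 and 563 ± 37.3 at day 9 in WT preadipocytes. Igfbp7 made up 58% ± 1.49 of that sum at day 0 and 30.3% ± 2.51 at day 9, and Igfbp3 3.75% ± 1.23 and 28.5% ± 0.769. Igfbp6, whose own level gave no call in the edgeR test, made up 14.5% ± 1.44 at day 0 and 34% ± 3.34 at day 9. In WT MEFs the sum was 1383 ± 47.1 CPM per kb at day 0 and 1184 ± 11.1 at day 12, and Igfbp3 held 63.3% ± 2.15 and 55% ± 0.361. These shares are a description and were not tested.

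In WT MEFs 2 or 3 members were called at each later day. Igfbp2 rose at day 8, the reverse of its course in preadipocytes, from 81, 51.8 and 88.2 CPM at day 0 through 230, 90.9 and 112 at day 4 to 444, 330 and 470 at day 8, and was back at 82.3, 80.8 and 79.6 at day 12. The log2 change was 0.87 (SE 0.32, adjusted p = 0.042) at day 4, 2.39 (SE 0.33, adjusted p = 0.00023) at day 8 and 0.05 (adjusted p = 0.917) at day 12. The day 4 value fell to 0.37 (adjusted p = 0.187) without WT replicate 1, the library that stood apart, and that call was also lost with no filter on low counts (adjusted p = 0.11), from the libraries of the 2 days alone (adjusted p = 0.104) and without any of 8 other single libraries. Every day 8 library was above every day 0 library, including the one that stood apart. Igfbp3 fell at day 4 by 0.73 on the log2 scale (SE 0.06, adjusted p = 4.17e-06), from 2628, 2951 and 2639 CPM to 1870, 1754 and 1682, and stood at 2560, 2412 and 2506 at day 8 and 2071, 2030 and 2009 at day 12. Igfbp4 fell by 0.67 at day 4 (SE 0.22, adjusted p = 0.0255), a call lost without any single WT library of day 0, without WT replicate 2 or 3 of day 4 (adjusted p = 0.0522 to 0.0933), with no filter on low counts (adjusted p = 0.0744), and below 1.5-fold with limma-voom (-0.51) or scaling by library size (-0.55).

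Igf2 was 2811, 2312 and 2801 CPM at day 0, 2976, 1845 and 1999 at day 4, 5715, 2685 and 5888 at day 8 and 2553, 2577 and 2573 at day 12. Its day 8 rise of 0.74 (SE 0.26, adjusted p = 0.0374) rested on replicates 1 and 3, since replicate 2, which stood apart, lay inside the range of day 0. By day 12 Igf1 fell by 1.37 (SE 0.47, adjusted p = 0.0386), from 541, 593 and 529 CPM to 219, 233 and 231, a call lost with no filter on low counts (adjusted p = 0.128) and without any single WT library of day 0 or day 12 (adjusted p = 0.0713 to 0.111). Of the receptors, Igf2r fell by 0.70 (SE 0.14, adjusted p = 0.00178) to 425, 432 and 445 CPM. Igf1r fell by 0.59 (SE 0.16, adjusted p = 0.00958) to 91.7, 97.2 and 97.2 CPM, a value at the 1.5-fold limit. It passed the adjusted p but was below 1.5-fold with DESeq2 (-0.57), with no filter on low counts and from the libraries of the 2 days alone (-0.52 in both), without the libraries that stood apart (-0.51) and in 7 of the fits that left out 1 library. Whether the changes differ between the cell sources was not tested. MEFs had the cocktail for 8 days, so effects of the medium and of differentiation cannot be told apart between days 8 and 12.

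At day 4 of MEFs 1 member was called higher and 2 lower (14.8% and 18.4% of 16359 tested genes), at day 8 2 were called higher and 0 lower (12.7% and 16.9%), and at day 12 0 were called higher and 3 lower (12.5% and 13.8%). The member median log2 change was -0.47, 0.34 and -0.43, beside 0.04, 0.03 and -0.07 for all genes tested. How many of all genes had day 8 libraries clear of day 0 was not counted. At day 8, 9144 of 16359 reached an unadjusted p under 0.05 by edgeR. Without the 2 WT libraries that stood apart, 5 members were called at day 4 (Igf1, Igfbp3, Igfbp4, Igfbp5, Igfbp6), 5 at day 8 (Igf2, Igf1r, Igfbp2, Igfbp5, Igfbp6) and 2 at day 12 (Igf1, Igf2r). The day 4 count fell to 1, Igfbp3, without WT replicate 1 or without WT replicate 2 of day 0. The day 8 count fell to 1, Igfbp2, without any single WT library of day 0 or day 12, or without WT replicate 1 or 3 of day 8, and rose to 4 without WT replicate 2 of day 8. At day 12 the count fell to 1, Igf2r, without WT replicate 2 or 3 of day 0 or WT replicate 1 of day 12.

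The wider IGF pathway list of 33 genes moved in both directions over differentiation. Of 29 tested in WT preadipocytes, 8 were called higher and 6 lower at day 3, 12 and 10 at day 6, and 10 and 10 at day 9. Of all genes tested, 11.1% were called higher and 13.6% lower at day 3, 25.6% and 27.5% at day 6, and 25.8% and 27% at day 9. The genes named next are examples among those called. The genes for the insulin receptor (Insr, log2 change 1.60, SE 0.10, adjusted p = 5.14e-08 at day 6), its substrate Irs2 (2.64, SE 0.20, adjusted p = 5.34e-07) and the growth hormone receptor (Ghr, 1.77, SE 0.09, adjusted p = 1.69e-08) rose, while the protease gene Pappa fell by 2.76 (SE 0.28, adjusted p = 7.8e-06). The RNA-binding proteins Igf2bp1, Igf2bp2 and Igf2bp3 all fell at day 6, Igf2bp3 by 2.22 (SE 0.15, adjusted p = 9.37e-08). Of 30 tested in WT MEFs, 4 were called higher and 9 lower at day 4, 7 and 5 at day 8, and 6 and 8 at day 12. The shares of all genes in MEFs were 14.8% and 18.4% at day 4, 12.7% and 16.9% at day 8, and 12.5% and 13.8% at day 12. Igfbp1, the liver binding protein, had 0 counts in all 48 libraries.

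DKO cells were compared with WT cells at each day. Members were called only at day 12 of MEFs and at day 6 of preadipocytes, and every called member was lower in DKO cells. The most genes of any kind were also called at these days, 1222 of 15319 in MEFs and 1700 of 14694 in preadipocytes. Differences as large stood uncalled at other days, such as -0.89 (SE 0.76) on the log2 scale for Igfbp5 at day 8 of MEFs. In MEFs at day 12, Igf2 was 1272, 1214 and 1315 CPM in DKO libraries and 2553, 2577 and 2573 CPM in WT libraries, a log2 difference of -1.02 (SE 0.04, adjusted p = 2.33e-10 by edgeR). Igf1 was 153, 128 and 156 CPM in DKO against 219, 233 and 231 in WT, a log2 difference of -0.64 (SE 0.07, adjusted p = 4.56e-05). Both ligands were lower in 3 of 3 DKO libraries, with no overlap. Igfbp5 was 406, 459 and 409 CPM in DKO against 728, 760 and 770 in WT (log2 difference -0.83, SE 0.05, adjusted p = 9.57e-09). Igfbp4 was 195, 200 and 205 CPM against 322, 299 and 291 (log2 difference -0.60, SE 0.04, adjusted p = 5.21e-08). These binding proteins also did not overlap between the genotypes. How many of all genes separate in this way was not counted, and 6479 of 15319 reached an unadjusted p under 0.05 by edgeR at this day.

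**Figure D4:**
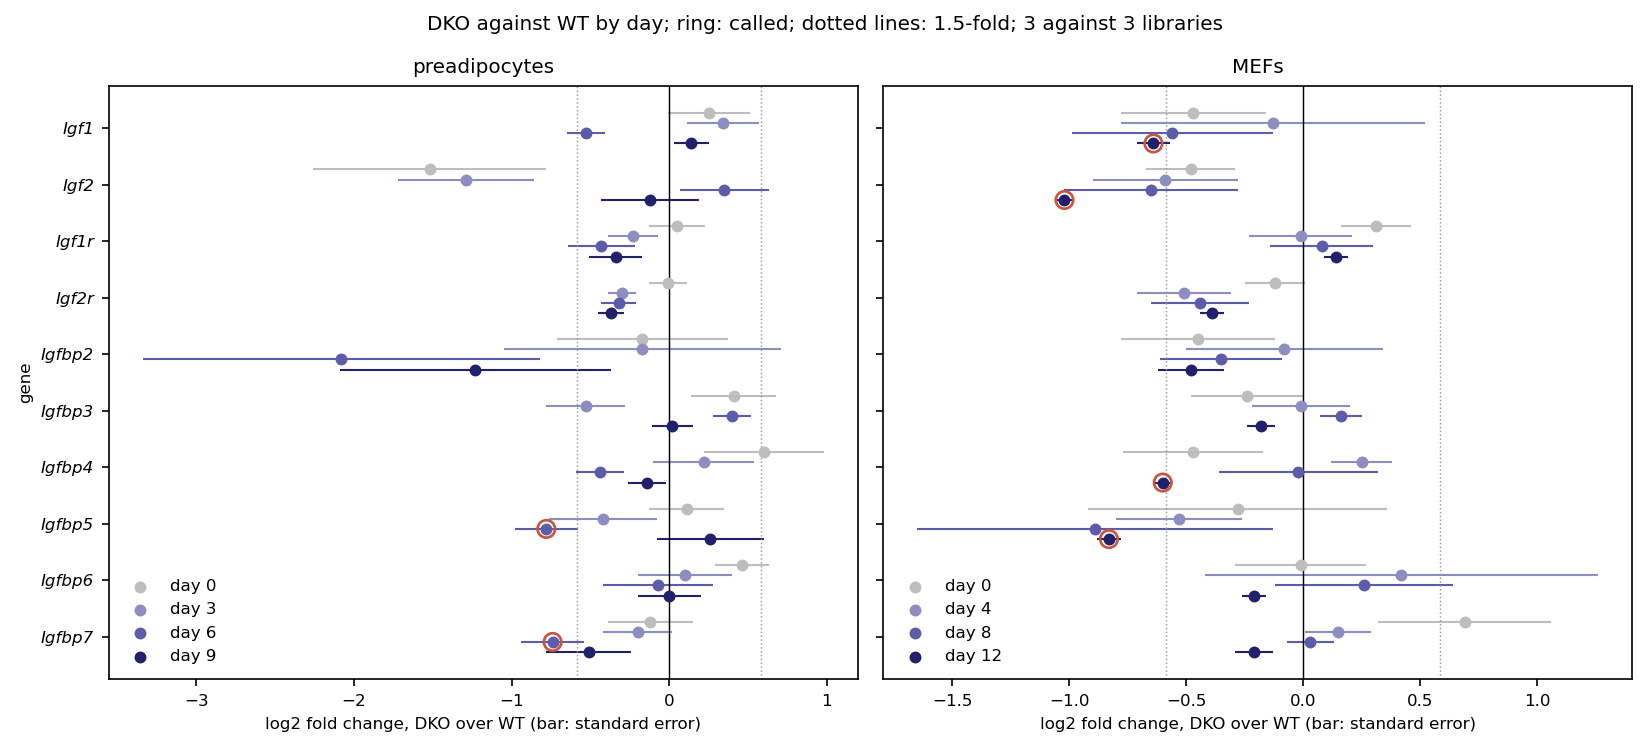
Log2 fold change of DKO over WT (horizontal axis, points with standard errors, a separate scale for each panel) for the 10 genes in preadipocytes (left) and MEFs (right), with colours for the day, rings around called genes and dotted lines at 1.5-fold. The rings lie on Igfbp5 and Igfbp7 at day 6 of preadipocytes and on Igf1, Igf2, Igfbp4 and Igfbp5 at day 12 of MEFs, all left of 0.

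The other members of day 12 MEFs differed by less than 1.5-fold. Igf2r was 333, 310 and 349 CPM in DKO against 425, 432 and 445 in WT (log2 difference -0.39, adjusted p = 8.35e-06). Igf1r was slightly higher in DKO (0.14, adjusted p = 0.0294), and Igfbp2 (-0.48, adjusted p = 0.0453), Igfbp3 (-0.18, adjusted p = 0.039) and Igfbp6 (-0.21, adjusted p = 0.00551) were lower, while Igfbp7 missed the threshold (-0.21, adjusted p = 0.0949). In all 4 of 10 members were called lower and 0 higher, against 4.05% and 3.92% of 15319 tested genes, and the member median log2 difference was -0.44 beside 0.00 for all genes. Of the 5 imprinted genes listed for their ties to Igf2 or Igf2r, 3 were called lower. Grb10, an imprinted gene listed with receptor signalling, was not called. H19 was 2430, 2334 and 2514 CPM in DKO against 4802, 4766 and 4833 in WT (log2 difference -0.99, SE 0.05, adjusted p = 4.07e-10), and Plagl1, a zinc finger gene of the imprinted growth network, gave a log2 difference of -0.66 (SE 0.09, adjusted p = 0.00118). The third was Igf2os, which lies antisense to Igf2 (-1.25, SE 0.23, adjusted p = 0.00065). Mest passed the adjusted p but not 1.5-fold (-0.55, adjusted p = 0.000823), and Airn, antisense to Igf2r, was not called (-0.31, adjusted p = 0.135). Of the 30 pathway genes tested, these 3 were called lower and 1 higher, the protease gene Pappa2.

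The libraries of day 12 lay close together, with an SD of 13 CPM for Igf2 in WT against 1802 CPM at day 8. When the spread was instead estimated over all 24 MEF libraries, 0 members were called at day 12, with Igf2 at -1.0 (adjusted p = 0.0761), Igf1 at -0.62 (adjusted p = 0.559), Igfbp4 at -0.58 (adjusted p = 0.267) and Igfbp5 at -0.80 (adjusted p = 0.527). Leaving out single libraries of day 12 gave 3 to 5 members. Cell markers moved with genotype at this day: the 6 adipocyte genes summed to between 14147 and 15193 CPM in DKO libraries, against 9020 to 9342 in WT, 6 fibroblast and preadipocyte genes (Pdgfra, Pdgfrb, Col1a1, Col3a1, Thy1, Dlk1) to 7457 to 8009 and 12852 to 13369, and the 6 macrophage genes to 2233 to 2558 and 3578 to 3631. All genes of the 3 lists had over 3 counts, and their part in the IGF family differences was not tested.

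In preadipocytes at day 6, Igfbp5 was 81.6, 54 and 54.5 CPM in DKO libraries against 115, 88.3 and 119 in WT libraries, a log2 difference of -0.78 (SE 0.20, adjusted p = 0.0348 by edgeR). Igfbp7 was 111, 157 and 86.4 CPM in DKO against 215, 178 and 188 in WT (log2 difference -0.74, SE 0.20, adjusted p = 0.042). Both were lower in 3 of 3 DKO libraries without overlap, which was not counted over all genes. At this day 5467 of 14694 genes reached an unadjusted p under 0.05 by edgeR. Igf1 was 99.7, 123 and 97.4 CPM in DKO against 164, 129 and 163 in WT and passed the adjusted p (0.0199) but not 1.5-fold (log2 difference -0.53). Igfbp3, which rose over differentiation, was 458, 451 and 389 CPM in DKO against 374, 316 and 282 in WT and missed the threshold (0.40, adjusted p = 0.052). Of the 10 members 2 were called lower and 0 higher, against 6.54% and 5.03% of 14694 tested genes, with a member median of -0.44 beside -0.01 for all genes.

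Both calls at day 6 sat near the threshold. They were lost, with 0 members called, without WT replicate 1, without WT replicate 3 or without DKO replicate 3, with the spread estimated over all days and without the filter on low counts, and Igfbp5 alone remained without DKO replicate 1. Igfbp7 was also lost without WT replicate 2 (adjusted p = 0.0732) and Igfbp5 without DKO replicate 2 (adjusted p = 0.0771). With single libraries left out, the fitted difference lay between -1.01 and -0.66 for Igfbp5 and between -0.98 and -0.56 for Igfbp7. The fibroblast and preadipocyte genes summed to between 2883 and 4316 CPM in DKO libraries, against 9569 to 11679 in WT, the macrophage genes to 1919 to 4001 and 5249 to 8857, and the adipocyte genes to 21091 to 26233 and 14528 to 18222. Their part was not tested. Of 28 pathway genes tested, Stat5a and Akt2, which carry growth hormone and insulin signals, were called higher, and H19 and the protease gene Htra1 lower. Among all 14694 genes tested, 5.03% were called higher and 6.54% lower. H19 was 38.6, 36.9 and 22.2 CPM in DKO against 75.4, 65.7 and 66.3 in WT (log2 difference -1.11, SE 0.20, adjusted p = 0.0123), the same direction as at day 12 of MEFs but at a far lower level.

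At the other 6 day comparisons edgeR called 0 members, and DESeq2 and limma-voom also called 0. In preadipocytes an unadjusted p under 0.05 was reached by 1 member at day 0, 2 at day 3 and 1 at day 9, where 0.0727%, 0.165% and 0.469% of tested genes were called higher in DKO and 0.145%, 0.172% and 0.776% lower. In MEFs it was reached by 1 member at day 0, 1 at day 4 and 0 at day 8, where 0.0383%, 0.0194% and 0.0132% of tested genes were called higher and 0.0638%, 0.0711% and 0.0463% lower. Few genes of any kind were called in these comparisons, so a missing call does not show that the members were alike.

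Several of these uncalled values depended on which libraries were kept. Igf2 in day 0 preadipocytes was 3.28, 4.43 and 3.43 CPM in DKO against 1.63, 14.7 and 15.2 in WT (log2 difference -1.52, adjusted p = 0.672), and without WT replicate 1 it was called (-2.03, adjusted p = 0.0398). Calls among all genes went from 33 to 18 with that step. Igfbp7 was called at day 9 without DKO replicate 2, where DKO libraries held 132, 213 and 98.2 CPM and WT libraries 217, 208 and 193. Leaving out that library raised the calls among all genes from 183 to 1460. The large negative values of Igfbp2 at day 6 (-2.08, adjusted p = 0.282) and day 9 (-1.23, adjusted p = 0.401) rested on WT replicate 1, at 7.46 and 4.7 CPM, and turned to 0.43 and 0.12 without it. At day 8 of MEFs, without the libraries that stood apart, 3 members were called, Igf2 (-0.69, adjusted p = 0.00227), Igfbp5 (-1.0, adjusted p = 0.00354) and Igf1, where the libraries left held 3850 and 3450 CPM of Igf2 in DKO against 5715 and 5888 in WT. At day 4 the same step called Igfbp5, with 277 and 313 CPM in DKO against 503 and 475 in WT. Calls among all genes rose with these steps, from 9 to 610 at day 8 and from 14 to 175 at day 4. Each step removed a WT and a DKO library that resembled each other, picked after the data were seen. Such a choice can itself widen the gap between genotypes, so these calls do not show a DKO effect.

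Igf2 gave lower mean CPM in DKO than in WT MEFs at each of the 4 days: 1888 ± 364 against 2641 ± 285 at day 0, 1530 ± 604 against 2273 ± 613 at day 4, 3106 ± 963 against 4763 ± 1802 at day 8 and 1267 ± 50.7 against 2568 ± 13 at day 12 (SD, n = 3). The Igf2 libraries of the genotypes overlapped at days 4 and 8 and not at days 0 and 12. Igf2 was not called at day 0 (adjusted p = 0.533 by edgeR). Genes that separate in this way were not counted, and 1454 of 15671 reached an unadjusted p under 0.05 by edgeR at day 0. Igf2 was not alone in this, since Igf1, Igf2r, Igfbp2 and Igfbp5 also had lower DKO means at all 4 days. Igf1r had higher DKO means at all 4 days, and the remaining members went both ways. The Igf2r libraries overlapped at days 0, 4 and 8. A test of whether the DKO effect differed between days, over 24 libraries of a cell type, called 0 members in preadipocytes (2.12% of 16877 tested genes called, 1 member at an unadjusted p under 0.05, Igfbp3) and 0 in MEFs (0.0177% of 16996, 0 members at an unadjusted p under 0.05). DESeq2 and limma-voom also called 0 in both. The effects at day 6 or day 12 are therefore not shown to be particular to those days.

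Across the 16 group means the genes whose log2 CPM ran most like that of Igf2 were Slc1a2 (Pearson r = 0.991), Zic1 (0.988) and Thsd4 (0.987), of 16034 genes compared. Those most like Igf1 were Scube1 (0.951), Eps15l1 (0.951) and Setd2 (0.945). These correlations are a description, since the 16 points share the step between preadipocytes and MEFs. Within the 8 preadipocyte group means, Igf1r, Igf2r, Igfbp2, Igfbp5 and Igfbp7 ran together (r between 0.929 and 0.996 for every pair) and each ran against Igfbp3 (r between -0.965 and -0.938), and these points share the order of days.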

How the data were processed

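RNA was sequenced as 50 bp paired-end reads in 48 libraries, 24 of preadipocytes and 24 of MEFs. Per the labels, the authors used bcl2fastq 2.17, cutadapt 1.18, STAR 2.7.0f and RSEM 1.3.0 with build mm10, and deposited expected counts per gene in 1 table per cell type. The strand setting of RSEM was not given in the sources used here, so Igf2, Igf1, Igf2r and Igfbp7 may share reads with genes that overlap them, among them Igf2os, Igf1os, Airn and Polr2b. Between 5.49% and 7.9% of a library's values were not whole, and counts were rounded.

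Each of 17 comparisons was fitted on all genes left by filterByExpr with edgeR 4.0.16 (TMM factors, robust quasi-likelihood test, two-sided) in R 4.3.3: DKO against WT within a day (6 libraries), days against day 0 in WT cells (12 libraries of a cell type), the DKO effect between days (24 libraries, called at the adjusted p alone), and WT preadipocytes against WT MEFs at day 0. A call needed a Benjamini-Hochberg adjusted p under 0.05 and a fold of at least 1.5. The scripts were tested on simulated counts. Levels of different genes were compared only as CPM per kb of summed exon length in GENCODE M21. Replicate pairs differed by more than sampling noise (chi-square per degree of freedom 2.16 to 168).

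All 10 members are named in every comparison or covered by its counts. For pathway genes, counts are given and examples named among those past the threshold. The members, gene lists and tests were chosen with earlier results of these data known. Alternatives were DESeq2 1.42.0, limma 3.58.1 (voom, quantile), scaling by library size, other filters and fold thresholds, other sets of libraries, a block for the replicate number, and fits that omit 1 library at a time. Leaving out the MEF libraries that stood apart was added after the data were seen.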

Additional observations from a re-analysis of the deposited data

How the results depend on the processing

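Counts of called members moved by over 1.5 times as follows. For DKO against WT preadipocytes at day 6 (2 called), no filter on low counts, a log2 fold change of at least 1 and 1 fit over all days each gave 0, and leaving out single libraries gave 0 to 3. For DKO against WT MEFs at day 12 (4 called), dropping the fold threshold gave 9, a log2 fold change of at least 1 gave 1, 1 fit over all days gave 0, and leaving out single libraries gave 3 to 5. Leaving out single libraries gave 0 to 1 at days 0 and 9 of preadipocytes and 0 to 1 for the DKO effect between days in MEFs (Igfbp7, without DKO replicate 1 of day 0). Without the libraries that stood apart, DKO against WT MEFs gave 1 at day 4 and 3 at day 8, where calls among all genes rose to 175 and 610.

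For WT preadipocytes, leaving out single libraries gave 1 to 4 at day 3, 7 to 8 at day 6 and 7 to 8 at day 9. For WT MEFs at day 4 (3 called), limma-voom gave 1, no filter 1, a log2 fold change of at least 1 gave 0, leaving out the libraries that stood apart gave 5 and single libraries 1 to 4. At day 8 (2 called), limma-voom, no filter, a log2 fold change of at least 1 and the libraries of the 2 days only each gave 1, no fold threshold gave 5, leaving out the libraries that stood apart gave 5 and single libraries 1 to 4. At day 12 (3 called), no filter gave 1, no fold threshold 5, a log2 fold change of at least 1 gave 1, and single libraries 1 to 2. Except where a stricter fold threshold or fewer libraries made the change, the cause was not tested.

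The value of Igfbp2 in DKO against WT preadipocytes changed sign without WT replicate 1, to 0.43 at day 6 and 0.12 at day 9, and with single libraries left out ranged from -2.59 to 0.43 and from -1.96 to 0.12. Of the other single-gene values under all alternatives, 859 kept direction and side of the threshold, 100 lost the call and 21 gained it. With the replicate block, 1 member (Igfbp5) was called at day 6 of preadipocytes, Igfbp7 having an adjusted p of 0.0735, and no other count moved by over 1.5 times. Deviations of same-numbered libraries correlated between -0.0919 and 0.04 there, and no comparison had every pair above 0.1. Between days of 1 genotype, same-numbered preadipocyte libraries did deviate together in 3 of 12 sets of 3 pairs: DKO at days 0 and 3 (0.393 to 0.554), DKO at days 6 and 9 (0.356 to 0.442) and WT at days 6 and 9 (0.12 to 0.435), a hint from the data that numbers pair libraries of those days. With the block of genotype and number, the test of the DKO effect between days called 0 members in both cell types, as without it. Scaling by library size alone turned the split of all calls at day 6 of preadipocytes from 739 higher and 961 lower to 502 and 1243, at day 9 from 69 and 114 to 53 and 274, at day 12 of MEFs from 601 and 621 to 479 and 765, and for WT MEFs at day 4 from 2416 and 3017 to 3168 and 2595, and moved the median of all genes by up to 0.17 on the log2 scale. No called member changed sign under it.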
